A study of Mus musculus with 6 samples.

Results

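The genes described here are 10 transcription factors of the skeletal muscle lineage, chosen by gene symbol. They are the paired box genes Pax7 and Pax3, the MyoD family Myf5, Myod1, Myog and Myf6, the related repressor gene Msc, and the MADS box genes Mef2a, Mef2c and Mef2d. All 10 are among the 24062 genes of a table of normalised counts, which covers the Twist2 line only. Pax7, Myod1, Msc and Mef2c are also among the 4939 genes of a table of CPM, reads scaled to a common library size, that covers both mouse lines, and levels of the other 6 in the Pax7 line were not analysed here.

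The study set freshly sorted Twist2-lineage cells against Pax7-lineage cells of adult hind limb muscle in C57BL/6 mice. Tw2pos cells (n = 2 libraries) were sorted as tdTO-positive and Tw2neg cells (n = 2) as tdTO-negative from muscle of the genotype Tw2-CreERT2/+;R26-tdTO+. Pax7pos cells (n = 1) and Pax7neg cells (n = 1) were the corresponding fractions of the genotype Pax7-CreERT2/+;R26-tdTO+. CreERT2 is a recombinase that works only in the presence of tamoxifen, and R26-tdTO is a red fluorescent reporter that it switches on. The mice of all 4 groups, the unlabelled fractions included, carried a CreERT2 allele and received 3 tamoxifen treatments, with harvest 10 days later. The label is a lineage label: it marks cells in which the driver gene was active at the time of tamoxifen, whether or not they still express it. The extraction protocol names labelled cells alone, and the unlabelled fractions are known from the sample titles. The labels do not state whether libraries of a group are separate animals. The p-values thus cover the spread between these libraries alone, which may be technical.

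The Twist2 libraries held between 10902318 and 13205751 reads, and the genes of the CPM table held 6016469 reads in Pax7pos and 7565797 in Pax7neg. Twist2 itself had 99.4 and 222 normalised counts in Tw2pos, against 21.96 and 23.2 in Tw2neg. Each of the 6 tendon markers and 5 of 7 fibroblast markers were higher in Tw2pos than in Tw2neg, and all 5 B cell markers, all 3 T cell markers and all 6 macrophage markers were lower, by limma at a Benjamini-Hochberg adjusted p under 0.05. Of 7 myofibre markers, 5 were also higher. Also lower were 6 of 7 endothelial markers, and all 4 Schwann cell, 4 neutrophil and 2 red blood cell markers tested. None of 6 pericyte and smooth muscle markers passed. Of all genes tested, 18.7% were higher and 20.0% lower. Of 9 satellite cell markers in the CPM table, 8 were lower in Tw2pos than in Pax7pos, and Chodl was the exception. Of all 4939 genes of that table, which were picked for differing, 25.1% were lower. These are bulk libraries, in which fewer cells of a type and less RNA per cell cannot be told apart.

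Satellite cells are the resident stem cells of skeletal muscle, and PAX7 marks and maintains them. PAX3 and PAX7 act upstream of the MyoD family, whose basic helix-loop-helix proteins pair with E proteins, bind E-box sequences and switch on muscle genes: MYF5 and MYOD1 commit cells to the lineage, and MYOG and MYF6 act in differentiation. MEF2 proteins bind their own sites at many of the same genes, and they also serve endothelium, B cells, macrophages and neurons.

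Members of a family share stretches of coding sequence, shown here because a short read inside one cannot be assigned to either gene. Each line gives the longest identical run between the coding sequences of a pair in GENCODE M21 (GRCm38), in lower case from 5′ to 3′. Any read longer than the run holds at least 1 difference between that pair.
Pax7 and Pax3, 26 bases from coding base 79 in both: ctggaagtgtccacccctcttggcca
Myf5 and Myod1, 26 bases: cgcaaggccgccaccatgcgcgagcg
Myod1 and Myog, 21 bases: aaagtgaatgaggccttcgag
Mef2c and Mef2d, 28 bases from coding base 197 in both: tgctcaagtacaccgagtacaacgagcc
The run of Myf5 and Myod1 encodes part of the basic region, the stretch that contacts the E-box. The other 10 pairs within these families shared runs of 10 to 17 bases, and untranslated regions were not compared.

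E-boxes (CANNTG, read the same on both strands) are the sites that the MyoD family binds. RefSeq promoters (GRCm38.p6, 250 bases before to 50 after a gene start) were at hand for 6 members. The promoters of Myog and Mef2c are shown because Myog is a classical target of the family and Mef2c differed most among the members between Tw2pos and Tw2neg. The 250 bases before the start are printed from 5′ to 3′ on the plus strand with the E-boxes in capitals.
Myog, chr1:134289754-134290003: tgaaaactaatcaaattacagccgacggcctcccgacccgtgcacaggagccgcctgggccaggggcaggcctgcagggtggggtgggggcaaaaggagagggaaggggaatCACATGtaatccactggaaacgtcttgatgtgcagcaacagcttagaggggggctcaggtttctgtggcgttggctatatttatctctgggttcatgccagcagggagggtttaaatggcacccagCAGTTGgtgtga
Mef2c, first of 3 starts, chr13:83503784-83504033: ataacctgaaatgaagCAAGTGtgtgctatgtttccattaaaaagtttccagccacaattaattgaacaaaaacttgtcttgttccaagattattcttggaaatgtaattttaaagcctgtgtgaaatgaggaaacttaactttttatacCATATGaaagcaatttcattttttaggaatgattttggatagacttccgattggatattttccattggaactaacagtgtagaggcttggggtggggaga
The Myog window held 2 E-boxes, beginning at -138 and -12 from the start, and the Mef2c window held 2, at -234 and -100. The windows of the other 2 Mef2c starts held 0 and 1. Of 32851 RefSeq promoter windows of the same length, 39.6% held 2 or more E-boxes. No E-box letters were in the windows of Pax7, Myf5, Mef2a or Mef2d, where 72.3% of all windows held at least 1. A match describes the letters and is no evidence of a bound site.

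Within the Twist2 line, every member that passed the test was lower in Tw2pos than in Tw2neg. Among those that passed, Mef2c had the largest difference, followed by Myod1 and Mef2d. Pax7, at -1.48, had a larger fitted difference than Myod1 but did not pass. The fit used limma on log2(normalised count + 1) over 14155 genes whose mean reached 10, and 8 members entered it: 3 were lower, none was higher, and 5 did not pass. Across all genes 38.6% passed, and 20.0% passed with a lower level in Tw2pos. The median log2 difference was -0.90 over the 8 members and -0.04 over all genes. Pax3 and Myf6 fell under the mean of 10.

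**Figure D1:**
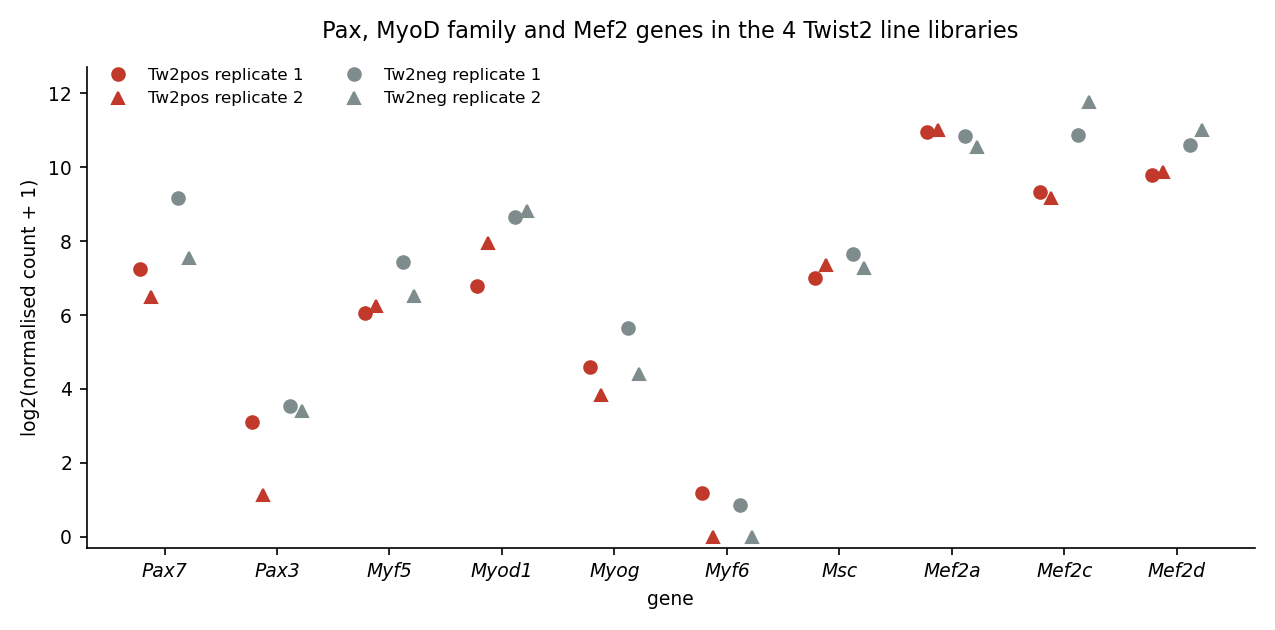
Normalised counts of the 10 members on a log2(normalised count + 1) axis, 1 point per library, with Tw2pos in red left of Tw2neg in grey and the replicate number as the symbol. Mef2c and Mef2d sit lower in both Tw2pos libraries than in both Tw2neg libraries, and Myf6 lies at or near 0 in all 4.

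Pax7 (chromosome 4, 139737062 to 139833528, minus strand), the satellite cell regulator, had 150.4 and 89.3 normalised counts in Tw2pos, against 569 and 186 in Tw2neg. Both Tw2pos libraries were below both Tw2neg libraries, and Tw2neg replicate 1 stood far above replicate 2. The log2 difference of -1.48 (SE 0.55, 95% interval -2.84 to -0.12) did not pass after adjustment across all genes (limma, adjusted p = 0.0803). It passed without Tw2neg replicate 2 (-2.29, adjusted p = 0.0181), with libraries scaled to their totals (-1.93, adjusted p = 0.0203), when all 6 libraries were fitted (-1.39, adjusted p = 0.0472), with DESeq2 on the recovered reads (-1.64, adjusted p = 0.00494) and with the replicate number as a block (adjusted p = 0.00016). Without Tw2neg replicate 1 it was -0.67 (adjusted p = 0.208), and without Tw2pos replicate 2 it was -1.11 (adjusted p = 0.253). Pax3 (chromosome 1, 78101267 to 78197134, minus strand), which serves limb muscle precursors of the embryo, had 6 and 1 reads in Tw2pos, against 13 and 12 in Tw2neg. Those few reads amount to 7.65 and 1.21 normalised counts in Tw2pos, against 10.6 and 9.60 in Tw2neg, and without a filter on level the difference did not pass (limma, adjusted p = 0.248).

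Myf5 (chromosome 10, 107482908 to 107486134, minus strand), the earliest MyoD family member in muscle development, had 65.0 and 74.8 normalised counts in Tw2pos, against 171 and 91.2 in Tw2neg. The groups did not overlap, but Tw2neg replicate 2 lay close to Tw2pos, and the log2 difference of -0.83 (SE 0.37, 95% interval -1.74 to 0.08) did not pass (limma, adjusted p = 0.124). It passed at -1.28 both without Tw2neg replicate 2 (adjusted p = 0.03) and with libraries scaled to their totals (adjusted p = 0.0254), and it was -0.38 without Tw2neg replicate 1 (adjusted p = 0.308). Myod1 (chromosome 7, 46376474 to 46379099, plus strand), the factor that converts other cells to muscle when forced on, had 108 and 245 normalised counts in Tw2pos, against 398 and 453 in Tw2neg. Its log2 difference was -1.38 (SE 0.39, limma, adjusted p = 0.0372), so that Myod1 was lower in Tw2pos and Tw2pos replicate 2 lay nearer to Tw2neg than replicate 1 did. That call ended without Tw2pos replicate 1 (-0.79, adjusted p = 0.187), without Tw2neg replicate 1 (-1.47, adjusted p = 0.0809) and without Tw2neg replicate 2 (-1.28, adjusted p = 0.139). It also ended without the filter on level (adjusted p = 0.0699), under quantile normalisation (adjusted p = 0.0562) and without the mean-variance trend (adjusted p = 0.0684).

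The differentiation members were scarce in all 4 libraries. Myog (chromosome 1, 134289989 to 134292548, plus strand), which is needed for myoblasts to form fibres, had 23.0 and 13.3 normalised counts in Tw2pos, against 49.6 and 20.0 in Tw2neg. The groups overlapped, and the log2 difference was -0.82 with a 95% interval of -2.22 to 0.58 (limma, adjusted p = 0.298). Leaving out Tw2neg replicate 1 gave -0.18 and leaving out Tw2neg replicate 2 gave -1.45, neither of which passed (adjusted p = 0.784 and 0.0906). Myf6 (chromosome 10, 107492853 to 107494737, minus strand), a factor of mature fibres, had 1 and 0 reads in Tw2pos, against 1 and 0 in Tw2neg. A library without a read allows up to 3.62 normalised counts in Tw2pos replicate 2 and up to 2.40 in Tw2neg replicate 2, so no fold is given. Msc (chromosome 1, 14753346 to 14755992, minus strand) encodes musculin, a repressor that competes with the MyoD family for E proteins and E-boxes. It had 128 and 163 normalised counts in Tw2pos, against 200.0 and 153 in Tw2neg. These ranges overlapped, and the log2 difference of -0.28 (95% interval -0.93 to 0.38) did not pass (limma, adjusted p = 0.447).

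Among the MEF2 genes, Mef2c and Mef2d were lower in Tw2pos and Mef2a did not pass. Mef2a (chromosome 7, 67231163 to 67372858, minus strand) had 1993 and 2054 normalised counts in Tw2pos, against 1837 and 1482 in Tw2neg. Both Tw2pos libraries were above both Tw2neg libraries, but the log2 difference of 0.29 (95% interval -0.18 to 0.76) did not pass (limma, adjusted p = 0.267) and turned to -0.16 when libraries were scaled to their read totals. It passed without Tw2neg replicate 1 (0.45, adjusted p = 0.0431). Mef2c (chromosome 13, 83504034 to 83667080, plus strand) had 640.0 and 578 normalised counts in Tw2pos, against 1865 and 3461 in Tw2neg. Its log2 difference of -2.06 (SE 0.31, limma, adjusted p = 0.00496) passed, and the Tw2neg libraries differed from each other far more than the Tw2pos libraries did. Mef2d (chromosome 3, 88142372 to 88172086, plus strand) had 891 and 929 normalised counts in Tw2pos, against 1556 and 2044 in Tw2neg. Its log2 difference of -0.97 (SE 0.20, limma, adjusted p = 0.0141) passed, and it no longer did without Tw2pos replicate 1 (adjusted p = 0.107) or replicate 2 (adjusted p = 0.0921). On the opposite strand, Msc overlaps Gm9947, Mef2a overlaps Lysmd4 and Mef2d overlaps 1700113A16Rik, and with the strand of the libraries not given, reads of such pairs may be mixed. Mef2a also overlaps Gm44667 and Gm44668 on its own strand.

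Markers of other cell types moved beside Mef2c. The summed level of the 5 B cell markers was 47.2 and 73.6 normalised counts in Tw2pos, against 4783 and 11344 in Tw2neg, with no marker at 0. Ptprc, the pan-leukocyte gene CD45, had 135 and 226 normalised counts in Tw2pos, against 6237 and 12121 in Tw2neg. Both were higher in Tw2neg replicate 2 than in replicate 1. The 6 macrophage markers summed to 2146 and 2839 in Tw2pos, against 25090 and 23706 in Tw2neg, and the 7 endothelial markers to 6339 and 4542 in Tw2pos, against 31751 and 11404 in Tw2neg. The endothelial sum was higher in Tw2neg replicate 1. In CPM, the B cell markers summed to 3.81 and 5.94 in Tw2pos, against 4.39 in Pax7pos. The macrophage markers summed to 173 and 229 CPM in Tw2pos, against 106 CPM in Pax7pos. The endothelial markers summed to 512 and 367 CPM in Tw2pos, against 119 CPM in Pax7pos. The part of these cell types in the Mef2c result was not tested.

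The satellite cell markers did not move as 1 group between Tw2pos and Tw2neg. Cdh15, which encodes M-cadherin, had 134 and 98.9 normalised counts in Tw2pos, against 487 and 208 in Tw2neg (log2 difference -1.46, limma, adjusted p = 0.041). Of the 11 satellite cell markers, which include Pax7, Myf5 and Myod1, 3 were lower in Tw2pos, Myod1 among them, 1 was higher and 7 did not pass, where 20.0% of all genes were lower and 18.7% higher. The 1 that was higher, Chodl, had 5936 and 5880 normalised counts in Tw2pos, against 1607 and 721 in Tw2neg. The summed level of all 11 was 15097 and 16645 in Tw2pos, against 16035 and 9540 in Tw2neg, so that the sum overlapped between the groups.

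Scaled to exonic length, the order of the members differed between the 2 fractions. In normalised counts per kilobase of exon, Tw2pos had 355 ± 7.61 of Mef2a and 156 ± 4.54 of Mef2d (SD, n = 2), followed by Myod1 at 94.9 ± 51.9, Msc at 83.4 ± 14.4 and Mef2c at 83.3 ± 6.03. Myod1, Msc and Mef2c did not differ beyond their spread there. Myf5 followed at 33.6 ± 3.31, then Pax7 at 20.5 ± 7.38 and Myog at 12.1 ± 4.58, with overlapping SD ranges for Pax7 and Myog. Within each Tw2pos library Myog was below Pax7, at ratios of 0.598 (95% counting interval 0.343 to 0.987) and 0.583 (0.279 to 1.10). Tw2neg had 364 ± 154 of Mef2c, 308 ± 59.1 of Mef2d, 291 ± 44.1 of Mef2a and 229 ± 21.2 of Myod1 per kilobase. The SD ranges of neighbours in that run overlapped, though Mef2a was above Myod1 within each Tw2neg library (322.5 and 260.1, against 213.7 and 243.6). Msc followed at 101 ± 19.2, then Pax7 at 64.4 ± 46.3 and Myf5 at 62.9 ± 27.0, and Myog at 23.3 ± 14.01. From Msc to Myog the SD ranges of neighbours overlapped. Within each Tw2neg library, however, Msc was above Pax7 (ratios of 1.18 and 2.77) and Myf5 above Myog (81.98 and 43.76, against 33.18 and 13.37). The order of Pax7 and Myf5 differed between the Tw2neg libraries. Pax3 and Myf6 were last in both fractions, at 1.15 and 0.505 per kilobase in Tw2pos, against 2.61 and 0.322 in Tw2neg.

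Ratios within a library do not depend on its scaling. The ratio of Mef2c to Mef2d in reads per kilobase was 0.574 and 0.498 in Tw2pos, against 0.959 and 1.35 in Tw2neg. The 95% counting intervals of the Tw2pos libraries (0.511 to 0.645 and 0.443 to 0.558) lay below those of the Tw2neg libraries (0.902 to 1.02 and 1.29 to 1.42). The ratio of Myod1 to Pax7 split by replicate number instead. It was 2.27 and 8.64 in Tw2pos replicates 1 and 2, against 2.20 and 7.70 in Tw2neg replicates 1 and 2. The replicate 1 intervals (1.70 to 3.02 in Tw2pos, against 1.96 to 2.47 in Tw2neg) did not overlap those of replicate 2 (6.59 to 11.4 in Tw2pos, against 6.59 to 9.01 in Tw2neg). In the Pax7 line it was 10.3 (9.91 to 10.8) in Pax7pos and 12.6 (4.59 to 43.0) in Pax7neg, where it rests on 20 and 5 reads. These intervals cover counting error only.

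**Figure D2:**
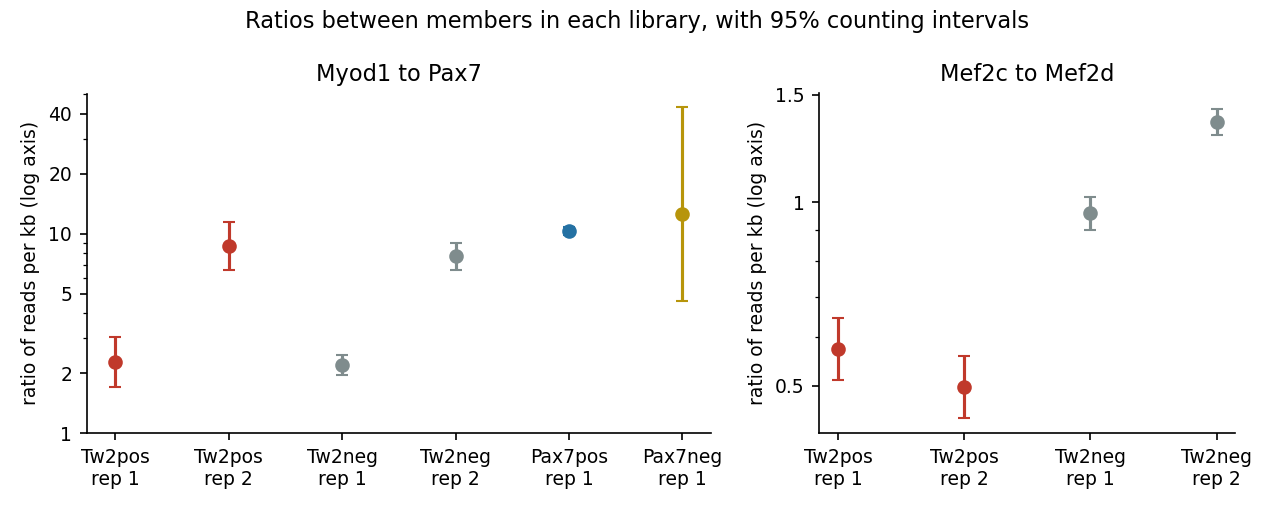
Ratio of Myod1 to Pax7 (left) and of Mef2c to Mef2d (right) in reads per kilobase of exon, on log axes, 1 point per library with its 95% counting interval. Myod1 to Pax7 is near 2 in both replicate 1 libraries of the Twist2 line and near 8 in both replicate 2 libraries, and Mef2c to Mef2d is lower in both Tw2pos libraries than in both Tw2neg libraries.

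Between the labelled fractions of the 2 lines, Pax7, Myod1 and Msc were far lower in Tw2pos than in Pax7pos, and Mef2c was higher. All 4 members of the CPM table passed in the 6-library limma fit on log2(CPM + 1), 3 lower and 1 higher. Over its 4939 genes, 58.8% passed, 25.1% with a lower and 33.7% with a higher level in Tw2pos. Every gene of that table reached 10 CPM in no fewer than 3 libraries, and in at least 1 of its 3 deposited comparisons with Tw2neg changed by 1 or more on the log2 scale. Its 4 members and its percentages therefore come from genes already picked for differing. Mef2a and Mef2d reached 10 CPM in all 4 Twist2 libraries, and their log2 ratios of CPM + 1 between Tw2pos and Tw2neg were 0.30 and -0.96. The fit takes the spread of the single Pax7pos and Pax7neg libraries from the Twist2 line.

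**Figure D3:**
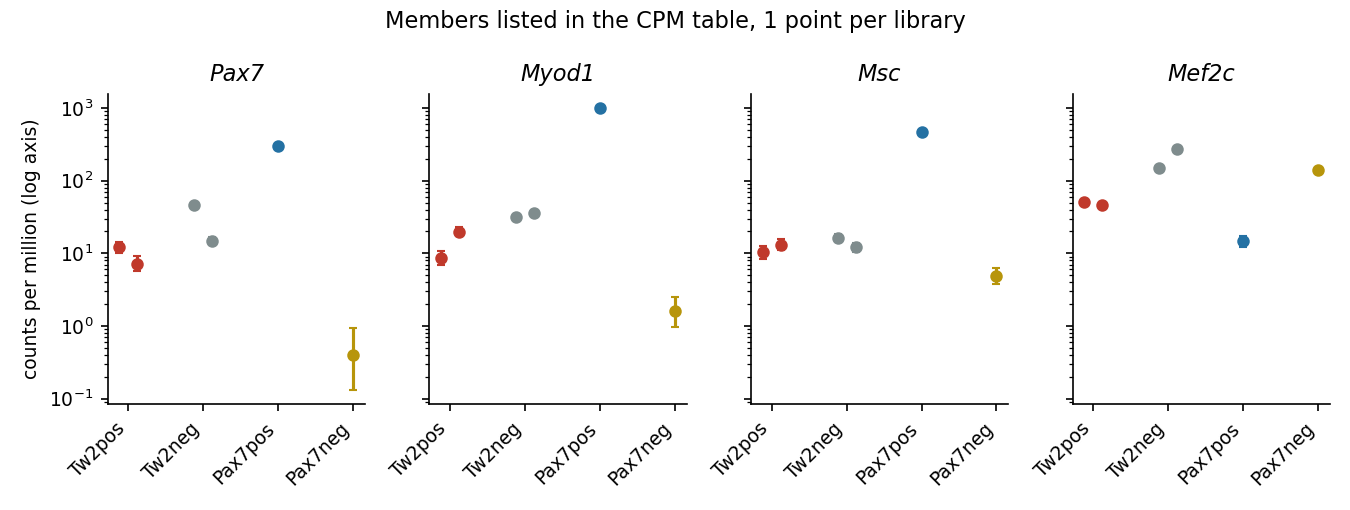
CPM of the 4 members in the CPM table on a log axis, 1 point per library with the exact 95% Poisson interval of its reads. Pax7, Myod1 and Msc are highest in Pax7pos and lowest in Pax7neg with the Twist2 libraries between, and Mef2c is lowest in Pax7pos.

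Pax7 had 12.2 and 7.21 CPM in Tw2pos, against 303 CPM in Pax7pos, a log2 difference of -4.87 (SE 0.64, limma, adjusted p = 0.000728). Since Pax7 drives the Cre of that line, its level in Pax7pos checks the label. Myod1 had 8.75 and 19.8 CPM in Tw2pos, against 993 CPM in Pax7pos (log2 difference -6.13, SE 0.47, limma, adjusted p = 6.67e-05). Msc had 10.3 and 13.2 CPM in Tw2pos, against 471 CPM in Pax7pos (log2 difference -5.22, SE 0.37, limma, adjusted p = 5.02e-05). Each Tw2pos library was therefore at 0.881% to 4.01% of the Pax7pos level for these 3 genes. Mef2c went the other way, with 51.7 and 46.7 CPM in Tw2pos, against 14.6 CPM in Pax7pos (log2 difference 1.68, SE 0.41, limma, adjusted p = 0.0095). Under quantile normalisation that difference was 1.001 and did not pass (adjusted p = 0.15).

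**Figure D4:**
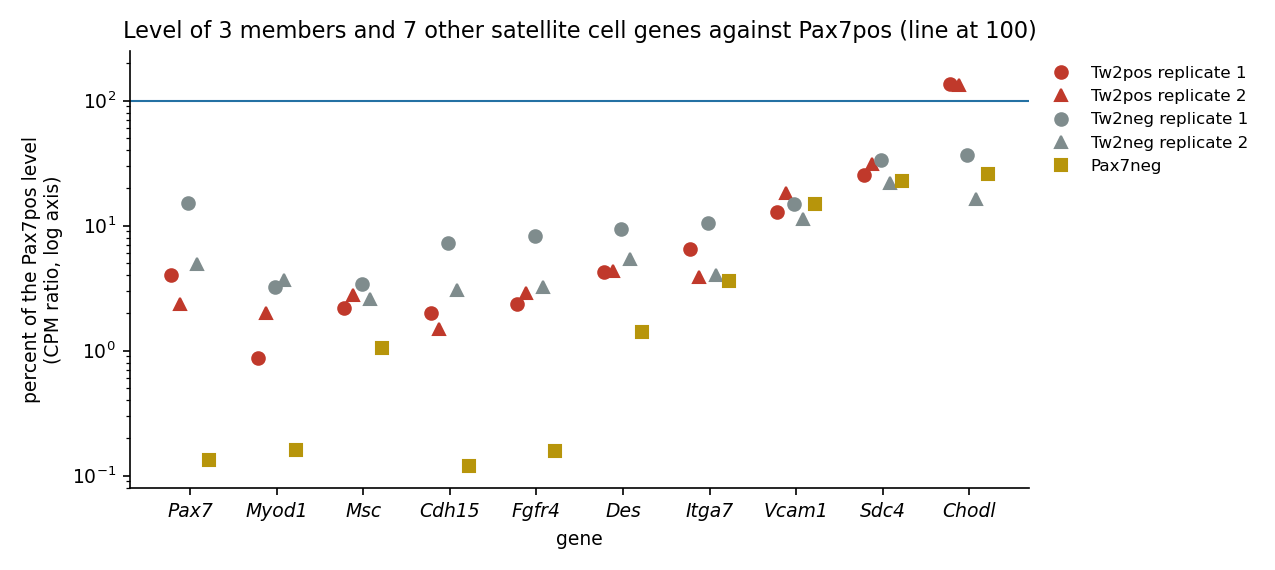
Level of Pax7, Myod1, Msc and 7 other satellite cell markers as a percent of their CPM in the Pax7pos library, on a log axis with a line at 100, 1 point per library. Pax7, Myod1, Cdh15 and Fgfr4 lie near 0.1% in Pax7neg, and Chodl is above the line in both Tw2pos libraries.

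Several satellite cell genes had shares of the same order. As a percent of the Pax7pos level, Pax7 was at 4.01 and 2.38 in Tw2pos and 15.1 and 4.90 in Tw2neg, Cdh15 at 2.004 and 1.48 in Tw2pos and 7.25 and 3.08 in Tw2neg, and Fgfr4, an FGF receptor, at 2.37 and 2.90 in Tw2pos and 8.26 and 3.25 in Tw2neg. For these 3 genes Tw2neg replicate 1 held the highest share among the Twist2 libraries. The same was true of Msc, Sdc4, Des (9.34%) and Itga7 (10.5%), but not of Myod1, Vcam1 or Chodl. Myod1 was at 0.881% and 1.99% in Tw2pos and 3.22% and 3.65% in Tw2neg, and Msc at 2.19% and 2.80% in Tw2pos and 3.41% and 2.59% in Tw2neg. The surface genes Vcam1 and Sdc4 had larger shares, from 11.3% to 33.6% in the Twist2 libraries, and Chodl was at 135% and 134% in Tw2pos and 36.4% and 16.3% in Tw2neg. In Pax7neg, Vcam1 was at 14.8%, Sdc4 at 22.8%, Chodl at 26.0% and Msc at 1.04%. Pax7 was at 0.133% there and Myod1 at 0.162%.

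Within the Pax7 line, with 1 library a fraction and no replicate check, all 4 members differed by at least 2 in log2(CPM + 10), as 18.4% of the 4939 genes did. Pax7 had 303 CPM in Pax7pos and 0.402 CPM (5 reads) in Pax7neg, a ratio of 754 with a 95% counting interval of 323 to 2323. Myod1 had 993 CPM in Pax7pos and 1.61 CPM (20 reads) in Pax7neg, a ratio of 618 (400.1 to 1013). Msc was less extreme, with 471 CPM in Pax7pos and 4.90 CPM (61 reads) in Pax7neg, a ratio of 96.0 (74.6 to 126). Mef2c was the 1 member lower in the labelled cells of this line, with 14.6 CPM in Pax7pos and 142 CPM in Pax7neg, a ratio of 0.103 (0.0861 to 0.122). The Pax7neg reads behind these intervals rest on a step found by search, since the smallest value of that library is not 1 read. Leukocyte and B cell genes moved with it, Ptprc having 5.85 CPM in Pax7pos, against 603 CPM in Pax7neg, and the 5 B cell markers summing to 4.39 CPM in Pax7pos, against 671 CPM in Pax7neg. Their part in the difference was not tested.

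Against Tw2neg, the authors' deposited table gives Pax7pos a log2 change of 3.28 for Pax7, 4.82 for Myod1, 4.96 for Msc and -3.78 for Mef2c. All comparisons with Tw2neg share its libraries.

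Between the unlabelled fractions, none of the 4 members passed in the main fit, where 0.0607% of genes did (3 of 4939, limma). Pax7 and Myod1 fell just short of the threshold, and that count of members was not stable. Myod1 passed among genes averaging 50 CPM or more (limma, adjusted p = 0.0407), and the count also changed when 1 library was left out. Pax7 had 45.7 and 14.8 CPM in Tw2neg, against 0.402 CPM in Pax7neg, with a log2 difference of 4.28 (95% interval 2.80 to 5.76, limma, adjusted p = 0.0545). Myod1 had 31.9 and 36.2 CPM in Tw2neg, against 1.61 CPM in Pax7neg (3.75, 95% interval 2.65 to 4.85, limma, adjusted p = 0.05002). Both Tw2neg libraries were above Pax7neg for both genes, at unadjusted p-values of 0.000177 for Pax7 and 5.74e-05 for Myod1 in limma. Pax7neg was sorted as cells without the label that Pax7 drives, and Tw2neg was not. The part of that sort in these differences was not tested. Msc had 16.1 and 12.2 CPM in Tw2neg, against 4.90 CPM in Pax7neg (1.35, 95% interval 0.48 to 2.21, limma, adjusted p = 0.162). Mef2c had 149.7 and 277 CPM in Tw2neg, against 142 CPM in Pax7neg (0.52, 95% interval -0.43 to 1.46, limma, adjusted p = 0.608). At an unadjusted p under 0.05, 3 of 4 members and 769 of 4939 genes differed in limma, and edgeR was not run on this comparison. Without Tw2neg replicate 1 the log2 differences were 3.50 for Pax7, 3.84 for Myod1, 1.16 for Msc and 0.96 for Mef2c. Without Tw2neg replicate 2 they were 5.06, 3.66, 1.53 and 0.08. Leaving out a Tw2pos library changed no estimate, since Tw2pos enters this comparison only through the spread.

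By fitted value, Pax7, Myod1 and Msc were lower in the labelled fraction of the Twist2 line and higher in that of the Pax7 line. Within the Twist2 line Myod1 alone of the 3 passed. Pax7 drives the Cre of the Pax7 line, so that line's difference in Pax7 was set by the sort. The labelled-minus-unlabelled difference of the Twist2 line minus that of the Pax7 line was -9.15 (SE 0.90) for Pax7, -9.87 (SE 0.67) for Myod1 and -6.57 (SE 0.53) for Msc on the log2(CPM + 1) scale, at adjusted p-values of 0.000329, 0.00011 and 0.000165 in limma. Mef2c was lower in the labelled fraction of both lines, and its difference between them, 1.17 (95% interval -0.17 to 2.50), did not pass (limma, adjusted p = 0.147). This test was passed by 3 of the 4 members, all with negative values, and by 35.7% of all genes listed, 12.5% with negative values.

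**Figure D5:**
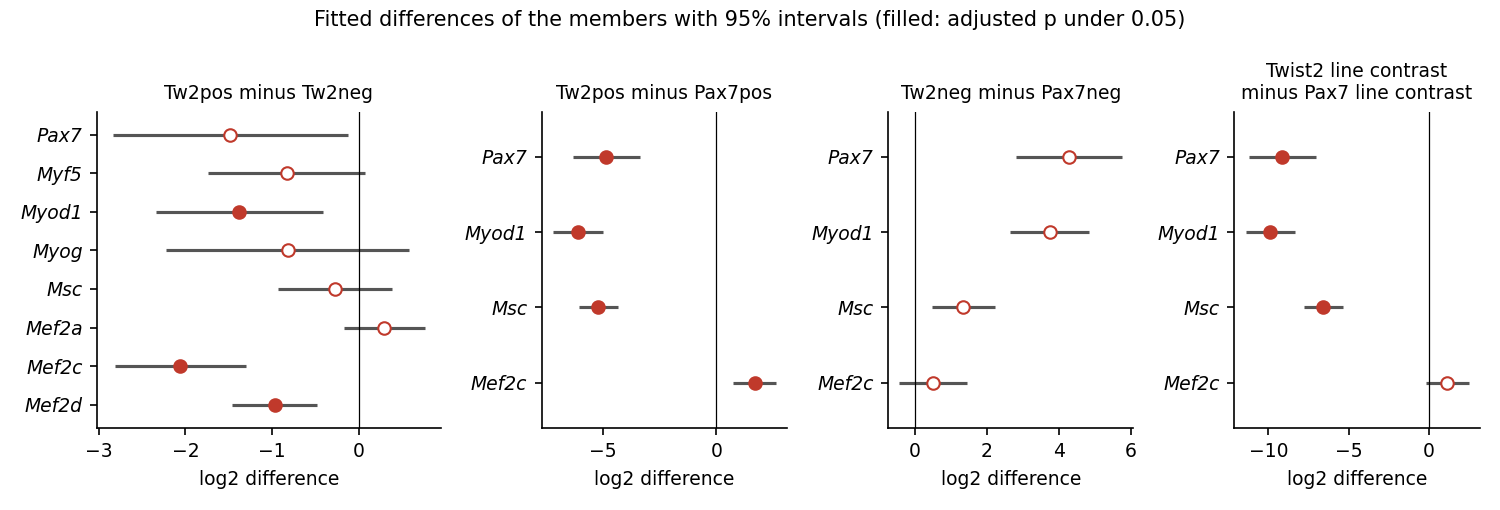
Fitted log2 differences with 95% intervals for the members tested in each of 4 comparisons, filled where the adjusted p is under 0.05. In the comparison within the Twist2 line only Myod1, Mef2c and Mef2d are filled, and in the comparison with Pax7pos all 4 are.

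The genes whose levels most resembled those of the members over the 6 libraries were sought by Pearson r on log2(CPM + 1). The 4712 genes compared averaged 10 CPM or more, with predicted genes (Gm and Rik symbols) left out. These r values describe 6 libraries that share depth and sorting, and Pax7pos lies far from the other 5 for Pax7, Myod1 and Msc. Pax7 was most like Cdh15 (r = 0.993), Ankrd1 (0.990), Fgfr4 (0.988), Rap1gap2 (0.986) and St3gal5 (0.985). Myod1 was most like Asb5 (0.996), Crebbp (0.996), Gal (0.991), Zfp568 (0.988) and Prox1 (0.983), and Asb5 had 17.4 and 36.7 CPM in Tw2pos, 63.5 and 62.5 CPM in Tw2neg, 1274 CPM in Pax7pos and 2.49 CPM in Pax7neg. Msc was most like Wiz (0.998), Sowahc (0.995), Sgms2 (0.994), Atxn2l (0.993) and Ddr1 (0.992). Mef2c was most like Ankrd44 (0.998), Nsf (0.997), Ptprj (0.996), Gcnt1 (0.996) and Hs3st1 (0.996), and Ankrd44 had 33.0 and 32.6 CPM in Tw2pos, 127 and 216 CPM in Tw2neg, 9.72 CPM in Pax7pos and 107 CPM in Pax7neg. Among the members, r was 0.945 for Pax7 and Myod1, 0.888 for Pax7 and Msc, 0.955 for Myod1 and Msc, and -0.548 for Pax7 and Mef2c, with -0.597 for Myod1 and Mef2c and -0.751 for Msc and Mef2c.

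The E proteins are the partners with which the MyoD family binds DNA. Of 3, Tcf4 and Tcf12 were higher in Tw2pos than in Tw2neg and Tcf3 did not pass, where 18.7% of all genes were higher. The list's median log2 difference was 0.54, against -0.04 over all genes. Tcf4 had 5963 and 5332 normalised counts in Tw2pos, against 3238 and 1990 in Tw2neg (1.15, limma, adjusted p = 0.0237), and Tcf12 had a log2 difference of 0.54 (adjusted p = 0.0486). Neither passed when libraries were scaled to their totals or quantile normalised. Scaled to totals, 1 of the 3 E proteins was lower in Tw2pos and the median was 0.09. Against Pax7pos, Tcf4 was the 1 E protein in the CPM table and did not pass (0.86, adjusted p = 0.088).

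Inhibitors of bHLH factors include the ID proteins, which hold E proteins away from DNA. Of 14, 6 were higher and 1 was lower in Tw2pos than in Tw2neg, where 18.7% of all genes were higher and 20.0% lower. Twist2, the driver of the label, and its relative Twist1 had the largest differences. Twist1 had 762 and 842 normalised counts in Tw2pos, against 168 and 94.4 in Tw2neg (2.66, limma, adjusted p = 0.00237). Bhlhe40, the most abundant of the list, had a log2 difference of 1.29 (limma, adjusted p = 0.0313), and Hes6, the 1 that was lower, had -0.93 (adjusted p = 0.0324). Scaled to library totals, 4 were higher and 4 lower. Of 8 in the CPM table, 2 were higher and 2 lower in Tw2pos than in Pax7pos: Twist1 by 4.68 and Bhlhe40 by 2.16, with Heyl at -2.98 and Hey1 at -2.75, both Notch targets. Over all genes of that table, 58.8% passed, 33.7% with a higher and 25.1% with a lower level in Tw2pos.

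MEF2 partners and repressors include the class IIa histone deacetylases. Of 13 tested between Tw2pos and Tw2neg, none was higher in Tw2pos and 2 were lower, where 38.6% of all genes passed. With libraries scaled to their totals 5 were lower, and under quantile normalisation or TMM factors 1 was. Hdac9 had 99.4 and 96.5 normalised counts in Tw2pos, against 252 and 250.3 in Tw2neg (-1.35, limma, adjusted p = 0.00681), and the kinase gene Mapk14 had a log2 difference of -0.55 (adjusted p = 0.0465). The list's median was -0.17. Against Pax7pos all 4 members of this list in the CPM table passed, 2 higher and 2 lower, where 58.8% of its genes passed. Under quantile normalisation 1 was higher and 1 lower. Hdac7 was higher in Tw2pos by 3.02 and Hdac9 by 2.65, and Hdac4 was lower at -1.93. Hdac9 was low in both labelled fractions, with 8.03 and 7.8 CPM in Tw2pos, against 0.418 CPM in Pax7pos. It reached 10 CPM only in the unlabelled libraries.

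Of 11 chromatin regulators and other cofactors of the MyoD family, 4 were higher and 3 lower in Tw2pos than in Tw2neg. Over all genes the shares were 18.7% higher and 20.0% lower. The homeobox gene Meis1 (1.88) and the methyltransferase gene Setd7 (0.59) were among those higher, by log2 difference. The remodeller ATPase gene Smarca4 (-1.07) and the retinoblastoma gene Rb1 (-0.72) were lower. The list's median of 0.43 turned to -0.02 when libraries were scaled to their totals. Of 5 in the CPM table, none was higher and 2 were lower in Tw2pos than in Pax7pos, Smarcd3 at -1.56 and Smarca4 at -1.17. There 33.7% of all genes were higher and 25.1% lower.

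Classical targets of the MyoD family and MEF2 were mostly low in the Twist2 line, and 19 of 28 entered the fit. Between Tw2pos and Tw2neg 2 were higher, 2 lower and 15 did not pass, where 38.6% of all genes passed. The fibre genes Ckm, for muscle creatine kinase, and Acta1, for skeletal alpha-actin, were higher in Tw2pos by 2.38 (limma, adjusted p = 0.0158) and 1.85 (adjusted p = 0.0244), and Cdh15 and Klf2 were lower at -1.46 and -1.10. Acta1 had 166 and 367 normalised counts in Tw2pos, against 87.8 and 52.0 in Tw2neg. The 7 myofibre markers, Ckm and Acta1 among them, summed to 488 and 830 normalised counts in Tw2pos, against 279 and 173 in Tw2neg, and the part of fibre RNA in these differences was not tested. The list's median of 0.25 turned to -0.16 when scaled to library totals and to -0.23 under quantile normalisation.

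The CPM table held 8 of the 28 targets. All 8 passed between Tw2pos and Pax7pos, 6 lower and 2 higher, in a table picked for differing where 58.8% of genes passed, 25.1% with a lower level. Their median was -3.55, against 0.41 over all genes of that table. Cdh15 had 10.8 and 7.99 CPM in Tw2pos, against 540 CPM in Pax7pos (-5.71, limma, adjusted p = 0.00014). Acta1 had 13.4 and 29.6 CPM in Tw2pos, against 576 CPM in Pax7pos (-4.78, limma, adjusted p = 0.000338), and it reached 10 CPM in 3 libraries only with Pax7pos counted. The 2 that were higher in Tw2pos were Klf2, a zinc finger factor, by 1.65 and the orphan nuclear receptor gene Nr4a1 by 1.36.

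Most genes associated with PAX3 and PAX7 were higher in Tw2pos than in Tw2neg. Of 10 that entered the fit from a list of 12, 7 were higher and none was lower, with a median of 1.71, where 18.7% of all genes were higher. With libraries scaled to their totals, 6 were higher and 1 lower. Fibroblast and tendon markers moved with them: the 7 fibroblast markers summed to 798386 and 885316 normalised counts in Tw2pos, against 210769 and 116668 in Tw2neg. The 6 tendon markers summed to 389780 and 346126 in Tw2pos, against 71751 and 31182 in Tw2neg, no marker of either list was at 0, and the part of these cells was not tested. The homeobox gene Meox1 had 1350 and 1424 normalised counts in Tw2pos, against 393 and 174 in Tw2neg (2.40, limma, adjusted p = 0.00579). The eyes absent gene Eya2, a transcriptional cofactor, had 835 and 895 normalised counts in Tw2pos, against 180 and 163 in Tw2neg (2.33, limma, adjusted p = 0.000797). Of 7 in the CPM table, 3 were higher and 3 lower in Tw2pos than in Pax7pos, where 58.8% of its genes passed. Meox2 (6.03) and Meox1 (5.35) were higher by log2 difference, and Fgfr4 (-5.16) and Met (-2.33), receptor genes of satellite cells, were lower.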

How the data were processed

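Freshly sorted cells were profiled by RNA-seq in 6 libraries. The submitters' processing notes name TopHat2 2.0.0, DESeq2 1.6.3 and GRCm38/mm10. Not given in the sources used here are the counter, annotation, read length and strand. The authors deposited a normalised signal (normalised counts) for the Twist2 libraries and CPM for both lines, with Twist2 groups as means. The authors' deposited log2 changes equal log2 ratios of CPM + 1. Divided by what 1 read is worth, 100% of values were whole within 0.01; for Pax7neg what 1 read is worth was found by search, as its smallest value is not 1 read. These reads gave the CPM of each Twist2 library.

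Comparisons used limma 3.58.1 (trend, Benjamini-Hochberg, threshold 0.05, 2 residual degrees of freedom, 4 prior in the 4-library fit and 5.71 in the 6-library fit). Pax7pos and Pax7neg were compared without a test. Ratio intervals are exact at 95%. edgeR 4.0.16 and DESeq2 1.42.0 were alternatives, run on recovered reads. Code was tested on simulated data. The members and lists were chosen with earlier results of these data known. Named list genes are those with the largest passing change, up to 2 a direction, and the most abundant; some are not reported here. Gene coordinates follow GENCODE M21.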

Additional observations from a re-analysis of the deposited data

Results flagged for a closer look

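Pax7, Myod1 and Msc were lower in the labelled than in the unlabelled fraction of the Twist2 line by fitted value, and higher in the labelled fraction of the Pax7 line. Within the Twist2 line Myod1 alone passed: the limma adjusted p was 0.0803 for Pax7 and 0.447 for Msc, whose groups overlapped. The difference between the lines was tested as an interaction term in limma over 4939 genes, and it was -9.15 for Pax7, -9.87 for Myod1 and -6.57 for Msc on the log2(CPM + 1) scale. It kept its direction and stayed past the threshold for these 3 genes in each alternative run. The Pax7 line rests on 1 library a fraction. Pax7 drives its Cre, so its difference in Pax7 was set by the sort. In the 6-library fit the Twist2 line gave -1.39 for Pax7, -1.30 for Myod1 and -0.25 for Msc. The Pax7 line gave 7.76, 8.58 and 6.32 on the same scale, so most of each value comes from that line.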

How the results depend on the processing

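Of 215 alternative values for single members, 184 kept direction and side of the threshold, 21 newly passed, 9 no longer passed and 1 reversed: Mef2a between Tw2pos and Tw2neg was -0.16 (limma, adjusted p = 0.532) with libraries scaled to their totals. That scaling moved the median of all genes to -0.49, against -0.04, and 5 members passed instead of 3. It called 1607 genes higher and 5257 lower, against 2645 and 2825. Leaving out 1 library, 1 to 4 members passed in that comparison and 2578 to 7370 genes, with 2831 genes without Tw2pos replicate 1 and 2578 without replicate 2. The lone sample is then assumed to vary like the other group. The 6-library fit called 3097 of 4939 genes. For Tw2pos against Pax7pos, 1501 genes passed among 2209 averaging 50 CPM or more, 1860 under quantile normalisation (862 higher and 998 lower, against 1665 and 1240; median -0.15, against 0.41), and 1658 to 3817 with 1 library left out, with 1658 without Tw2pos replicate 1 and 1858 without replicate 2. For Tw2neg against Pax7neg, 1 member passed among genes averaging 50 CPM or more, against 0. Leaving out 1 library also changed that count, through the spread alone where it was a Tw2pos library. For 4 members against Pax7pos, and for the difference between the lines (3 to 4 members), no count moved by over 1.5 times. The cause of these changes was not tested. edgeR was not run where Pax7neg enters, since its reads are less surely recovered. The depth leaves Pax3 and Myf6 without a fold.

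With the replicate number as a replicate block, 4 members and 6627 genes passed between Tw2pos and Tw2neg, Pax7 being added (-1.48, adjusted p = 0.00016). Deviations of same-numbered libraries correlated at r = 0.263 over 14155 genes, with 2 pairs only, and the labels do not say that a number marks shared animals.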
